A study of Mus musculus with 8 samples.

Results

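The suppressors of cytokine signalling (SOCS) are 8 related genes, Cish and Socs1 to Socs7, and all 8 were found by Entrez gene ID among the 27179 rows of the gene count table. They were followed in CCR6+ ILC3s, the innate lymphoid cells of group 3, which reside in mucosal tissue and make interleukin 22. The cells were isolated by flow sorting from large intestines of untreated C57BL/6 mice, and RNA was sequenced from 1 library per mouse. In the 4 Zbtb46 KO mice (replicates 5 to 8) both Zbtb46 alleles were floxed (Zbtb46f/f) and a Cre recombinase transgene active in these cells was present. In the 4 wild type mice (replicates 1 to 4) both alleles were floxed in the same way (Zbtb46f/f) with no Cre, so an effect of the Cre itself cannot be told apart from that of the deletion. The promoter of this Cre is also active in developing T cells, so the deletion is not limited to ILC3s in the animal. The sources used here do not state how old the mice were. The comparison addresses what the transcription factor Zbtb46 does to transcript levels in these cells.

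SOCS proteins are feedback inhibitors of cytokine receptors. A cytokine activates receptor-bound Janus kinases (JAKs), which phosphorylate STAT transcription factors, and the STATs switch on SOCS genes among their targets. Each SOCS protein holds an SH2 domain, which binds phosphorylated tyrosine, and a SOCS box, which recruits elongins and the scaffold CUL5 to form a ubiquitin ligase. SOCS1 and SOCS3 also carry a short region that blocks the kinase directly. ILC3s live on signals of this kind, among them interleukin 7 through STAT5 and interleukin 23 through STAT3.

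The libraries held between 25328231 and 33760743 counts each, with 10668 to 14410 genes detected. The 14410 belonged to wild type replicate 2, and the others had 10668 to 11967. Levels are given as CPM, the count of a gene relative to its library total, after scaling of the totals by the trimmed mean of M values (TMM), and as means ± SD over n = 4 libraries per group. Where a gene had no count, its level could still be as high as 3 counts of the scaled total, 0.0848 to 0.123 CPM depending on the library, and this limit covers counting error only. Folds are Zbtb46 KO over wild type, and the threshold was an adjusted p of 0.05 in edgeR's quasi-likelihood test over all 8878 genes tested. As a check of the labels, Zbtb46 had 4.78, 0.527, 3.16 and 0.124 CPM in Zbtb46 KO replicates 5 to 8, against 7.95, 48.3, 88.0 and 26.3 CPM in wild type replicates 1 to 4. All 4 Zbtb46 KO libraries lay below all 4 wild type libraries. Its fitted log2 fold was -4.31 (standard error 1.42) with an edgeR adjusted p of 0.885, and DESeq2 gave an adjusted p of 0.0115. RefSeq spans of other genes overlap that of Zbtb46, and the sources used here do not say whether counting used strand. The same holds for Socs2 and Socs5, each of which overlaps a predicted gene. Spans of other annotated genes also overlap those of Pias1, Stat4, Csf2rb, Il27ra, Ifnar2, Igf1r, Bcl2 and Gbp2, named below.

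Every library held transcripts of ILC3 markers. The 7 ILC3 markers Ccr6, Il7r, Il22, Il23r, Kit, Thy1 and Tcf7 summed to 18801 to 23375 CPM in Zbtb46 KO and 20097 to 30588 CPM in wild type libraries, most of it Il22. With Il22 so large a part, the sum says little about the other ILC3 markers, of which Il23r and Kit are given below. Markers of other cells varied by library. Epithelial markers reached 1339.8 CPM in wild type replicate 2 and at most 28.3 CPM elsewhere, with Vil1 at 3 counts or fewer throughout. Stromal and endothelial markers reached 413 CPM in Zbtb46 KO replicate 7 and 779 CPM in wild type replicate 1, and 13.9 to 114 CPM elsewhere. Of these, Cdh5 had 3 counts or fewer throughout. Markers of macrophages and neutrophils came to 370.3 and 765 CPM in Zbtb46 KO replicates 5 and 7, to 11.1 and 0.279 CPM in replicates 6 and 8, and to 0.983 to 87.9 CPM in wild type libraries. NK cell and ILC1 markers summed to 188 to 628 CPM in Zbtb46 KO and 49.3 to 246 CPM in wild type libraries, with Eomes and Prf1 at 3 counts or fewer in every library. T cell markers summed to 86.4 to 247 CPM in Zbtb46 KO and 72.6 to 202 CPM in wild type libraries, with Cd8a at 3 counts or fewer throughout. B and plasma cell markers summed to 21.1 to 89.1 CPM in Zbtb46 KO and 8.72 to 135 CPM in wild type libraries, with Ms4a1 at 3 counts or fewer. Dendritic cell markers summed to 103 to 158 CPM against 88.7 to 132 CPM and ILC2 markers to 8.15 to 94.5 CPM against 18.8 to 89.0 CPM, in each case Zbtb46 KO against wild type. The dendritic marker Cd209a had 3 counts or fewer throughout. Mast cell markers reached 65.6 CPM in Zbtb46 KO replicate 6 and at most 3.20 CPM elsewhere, and erythroid markers at most 0.226 CPM. The mast cell markers Mcpt1, Mcpt2, Fcer1a and Cma1 had 3 counts or fewer throughout, so the 65.6 CPM came almost wholly from Cpa3. Because these are bulk libraries, fewer cells of a type and less RNA per cell cannot be told apart.

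No SOCS gene had a difference past the threshold, and nor did any other gene in edgeR, the deleted Zbtb46 included. The absence of calls is therefore not particular to the family. Of the 8 members, all of which passed the expression filter, 0 were called by edgeR, against 0% of all genes tested. At an unadjusted p of 0.05 edgeR had 0 of 8 members, against 4.10% of all genes tested. DESeq2 called 0 of 8 members, against 3.26% of the 11478 genes to which it gave an adjusted p, and 1 member, Socs1, had an unadjusted p under 0.05 with it, against 7.46% of the 16714 genes with a p-value. Limma-voom with sample quality weights called 0 of 8 members and 0% of genes, and it had no member at an unadjusted p under 0.05, against 8.73% of genes. The members split evenly, with 4 fitted higher and 4 lower in Zbtb46 KO, and their median log2 fold was 0.12, beside 0.02 over all genes tested.

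Within the family Cish stood highest. Levels were set per kilobase of merged exons to compare genes, with a limit given below. The means over 8 libraries were 21.4 CPM per kb for Cish, 9.46 for Socs5 and 8.11 for Socs1. The other 5 followed at 1.37 for Socs6, 1.23 for Socs7, 1.12 for Socs2, 0.801 for Socs3 and 0.714 CPM per kb for Socs4. Cish was the highest member in 7 of 8 libraries. The exception was wild type replicate 2, where Socs5 had 28.4 and Cish 27.1 CPM per kb. That library also held the epithelial markers, whose part in this was not tested. Cish also exceeded Socs1 in 8 of 8 libraries. Socs1 exceeded Socs5 in 4 of 8, so the order of those neighbours was not fixed, and the 5 lowest members overlapped widely. Cish made up 41.5% to 61.3% of the family's summed level per kb in Zbtb46 KO and 35.3% to 60.7% in wild type libraries. Merged exons join all GENCODE transcripts of a gene, so a gene with long alternative transcripts is understated on this scale. Those of Cish (6419 bases) and Socs1 (2908 bases) are longer than the whole RefSeq spans of these genes, so both are understated. The lead of Socs5 in wild type replicate 2, the order of Socs5 and Socs1 and the shares of Cish therefore depend on the lengths used.

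**Figure D1:**
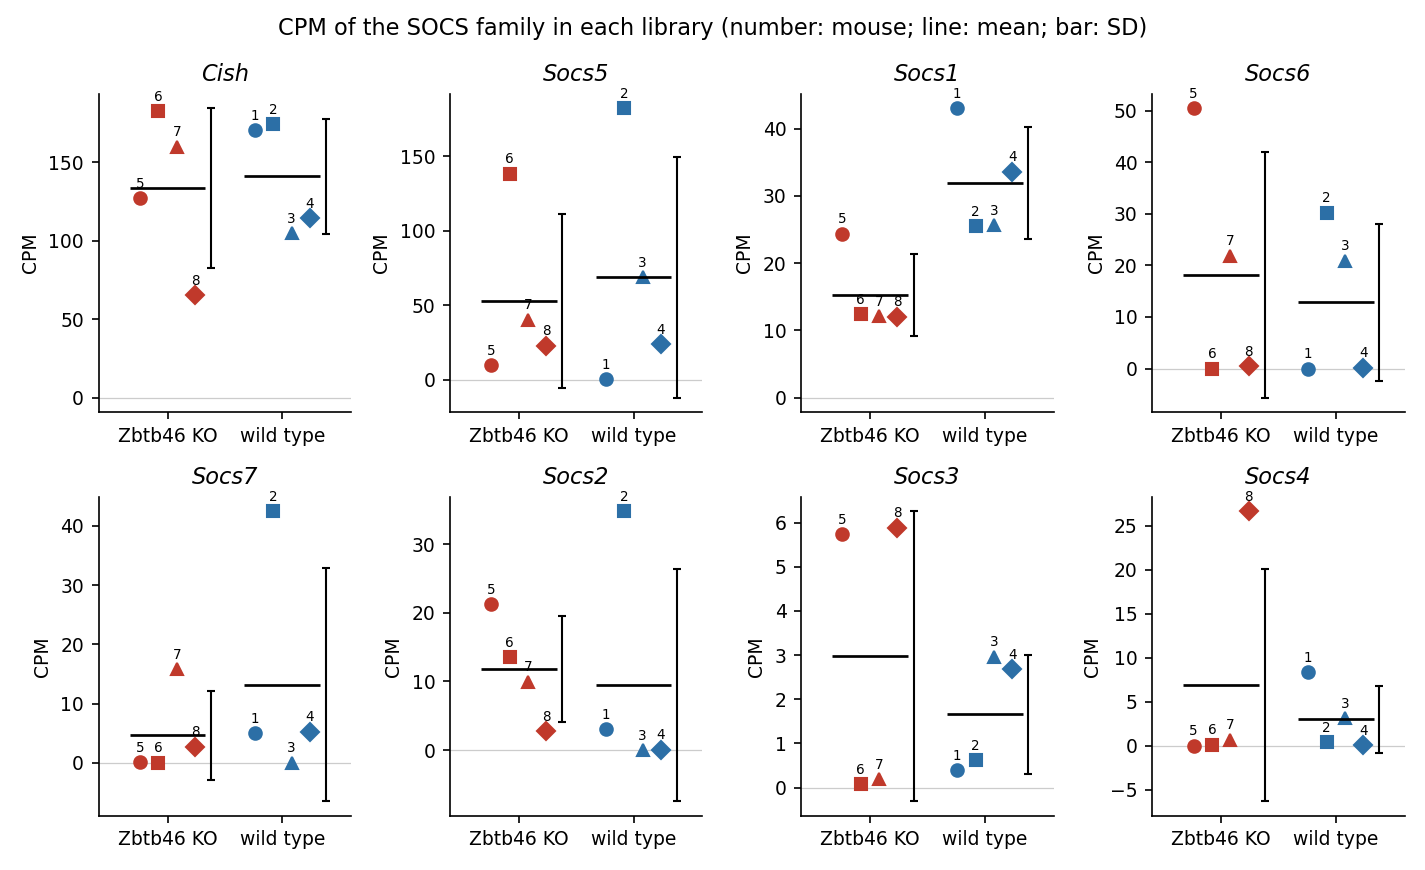
CPM of each SOCS family gene (one panel each, own linear axis) in Zbtb46 KO and wild type libraries, with each point numbered by replicate, the line at the group mean and the bar at ± SD (n = 4). Cish and Socs1 had reads in every library at a similar scale, while single libraries carried most of the reads of Socs4 and Socs7, as with 26.6 CPM of Socs4 in Zbtb46 KO replicate 8.

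Cish (Entrez ID 12700, chr9:107296659-107302784 in RefSeq's GRCm38.p6 annotation) encodes CIS, which binds the phosphorylated receptor sites where STAT5 would dock and which in mouse NK cells restrains the response to interleukin 15. It had 127, 182, 159.8 and 65.3 CPM in Zbtb46 KO replicates 5 to 8, against 170.4, 174, 105 and 114 CPM in wild type replicates 1 to 4. The groups overlapped fully, and the lowest value, in Zbtb46 KO replicate 8, and the highest, in Zbtb46 KO replicate 6, came from one group. Means were 134 ± 50.9 CPM in Zbtb46 KO and 141 ± 36.4 CPM in wild type cells. The fitted fold was 0.948 with a 95% interval from 0.533 to 1.68, so a change of 2-fold in either direction lay outside the interval. Its edgeR adjusted p was 1.00 (unadjusted 0.840). The sign of so small a fold was not fixed, and with no scaling factors its log2 value was 0.016 in place of -0.08.

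Socs1 (Entrez ID 12703, chr16:10783808-10785536) encodes an inhibitor that binds JAK1, JAK2 and TYK2 and is the main brake on interferon gamma signalling. It had 24.4, 12.4, 12.1 and 12.0 CPM in Zbtb46 KO replicates 5 to 8, against 43.1, 25.5, 25.7 and 33.6 CPM in wild type replicates 1 to 4. All 4 Zbtb46 KO libraries lay below all 4 wild type ones, by a margin of about 1 CPM between Zbtb46 KO replicate 5 and wild type replicate 2, and scaled by library totals alone the groups overlapped. It was the 1 of 8 members whose groups did not overlap, against 4.36% of all genes tested in either direction and 2.10% in that direction. Means were 15.2 ± 6.09 CPM in Zbtb46 KO and 31.9 ± 8.32 CPM in wild type cells. Its fitted log2 fold was -1.07 (standard error 0.82), a fold of 0.477 with a 95% interval from 0.134 to 1.70. It did not pass the test, with an edgeR adjusted p of 1.00 (unadjusted 0.224) and a DESeq2 adjusted p of 0.179. Over 17 other settings its log2 fold stayed between -1.40 and -0.80 and its adjusted p between 0.179 and 1.00. Summed markers of NK cells and ILC1s were 188 to 628 CPM in Zbtb46 KO and 49.3 to 246 CPM in wild type libraries, and their part in this difference was not tested.

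The 250 bases before the RefSeq start of Socs1 are shown because it is the member whose groups stood apart. A 25-base stretch before Socs3 is shown because it held the only match to the STAT palindrome among the 4 members searched. The Socs1 stretch is chr16:10785537-10785786 on the minus strand and the Socs3 stretch is chr11:117969504-117969528 on the minus strand, both from RefSeq's GRCm38.p6 table. Only 4 of 8 members (Cish, Socs1, Socs3 and Socs4) had a promoter window there. Socs2, Socs5, Socs6 and Socs7 were not searched. Capitals mark letters that match TTCNNNGAA, the palindrome that STAT dimers bind, or GAAANNGAAA, the core of the element that interferon regulatory factors bind, searched on both strands.
Socs1: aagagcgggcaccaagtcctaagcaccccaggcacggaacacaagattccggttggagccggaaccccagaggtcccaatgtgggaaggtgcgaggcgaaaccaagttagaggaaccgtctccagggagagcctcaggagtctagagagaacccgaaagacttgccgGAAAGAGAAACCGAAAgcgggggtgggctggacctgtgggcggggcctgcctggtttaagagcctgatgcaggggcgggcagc
Socs3: aaccagccTTCTTAGAAgggagggg
The Socs1 capitals hold 2 overlapping GAAANNGAAA matches, which begin 83 and 77 bases before the start. A single TTCNNNGAA match begins 154 bases before the Socs3 start that the table uses, position 117969366. That start lies inside the RefSeq span of the gene (chr11:117966079-117970336), so this stretch is upstream of 1 annotated start and downstream of the 5′ end of the span. Of all 32851 promoter windows of this length, 2.98% held at least 1 GAAANNGAAA, 0.180% held at least 2, and 7.02% held at least 1 TTCNNNGAA. The windows of Cish and Socs4 held neither pattern, and the Cish window lies within the first exon of a longer GENCODE transcript, so it may be transcribed sequence. Nor did any of the 4 windows hold TTCNNNNGAA, the wider palindrome bound by STAT6, which 5.85% of all windows held. These are letter matches and not measured binding.

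Socs3 and Socs2 were lower and varied between libraries. Socs3, the inhibitor of receptors that signal through gp130 and of the interleukin 23 receptor, had 5.74, 0.0752, 0.186 and 5.89 CPM in Zbtb46 KO replicates 5 to 8, against 0.388, 0.615, 2.96 and 2.69 CPM in wild type replicates 1 to 4. The Zbtb46 KO libraries held both the highest and the lowest values, and replicate 6 had only 2 counts. Means were 2.97 ± 3.28 CPM in Zbtb46 KO and 1.66 ± 1.35 CPM in wild type cells, a fitted fold of 1.79 with a 95% interval from 0.179 to 17.8. Socs2, which limits growth hormone receptor signalling, had 21.3, 13.6, 9.95 and 2.73 CPM in Zbtb46 KO replicates 5 to 8, against 3.06, 34.8, 0 and 0.0778 CPM in wild type replicates 1 to 4. It was present in all 4 Zbtb46 KO libraries, while 2 wild type libraries had 0 and 2 counts and wild type replicate 2, which also held the epithelial markers, had the highest value. The part of the epithelial markers in that value was not tested. Means were 11.9 ± 7.72 CPM in Zbtb46 KO and 9.48 ± 16.9 CPM in wild type cells, a fitted fold of 1.25 with a 95% interval from 0.0605 to 25.9. Without wild type replicate 2 the log2 fold of Socs2 was 3.50 in place of 0.33, with an edgeR adjusted p of 1.00. With limma-voom it was 3.66, with an adjusted p of 0.664.

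Socs5 and Socs4, a closely related pair that act on the epidermal growth factor receptor, differed in level. Socs5 (chr17:87107278-87137647) had 9.55, 138, 40.1 and 22.9 CPM in Zbtb46 KO replicates 5 to 8, against 0.194, 182, 68.6 and 23.9 CPM in wild type replicates 1 to 4. Both groups ran from low to above 100 CPM, and wild type replicate 1 had 5 counts where wild type replicate 2 had 4450. Means were 52.7 ± 58.4 CPM in Zbtb46 KO and 68.7 ± 80.9 CPM in wild type cells. The fitted fold was 0.766, with a 95% interval from 0.0991 to 5.93. Without wild type replicate 2, which also held the epithelial markers, the log2 fold of Socs5 was 0.77 in place of -0.38. Without Zbtb46 KO replicate 6 it was -1.50. The part of the epithelial markers in the Socs5 values was not tested. Socs4 had 0, 0.113, 0.682 and 26.6 CPM in Zbtb46 KO replicates 5 to 8, against 8.33, 0.410, 3.10 and 0.0389 CPM in wild type replicates 1 to 4. Its mean of 6.85 ± 13.2 CPM in Zbtb46 KO cells came almost wholly from replicate 8, and the wild type mean was 2.97 ± 3.83 CPM. Its fitted log2 fold was 1.20, with a 95% interval from -3.78 to 6.19, and without that library the log2 fold was negative, at -3.47.

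Socs6 and Socs7, relatives that bind insulin receptor substrates, and in the case of SOCS6 also the receptor KIT, were present in some libraries and nearly absent from others. Socs6 had 50.5, 0, 21.8 and 0.403 CPM in Zbtb46 KO replicates 5 to 8, against 0, 30.2, 20.9 and 0.195 CPM in wild type replicates 1 to 4. Each group had a pair of libraries above 20 CPM and a pair below 1 CPM. Means were 18.2 ± 23.8 CPM in Zbtb46 KO and 12.8 ± 15.2 CPM in wild type cells, with a fitted fold of 1.42 and a 95% interval from 0.0404 to 49.8. Socs7 had 0.0848, 0, 15.8 and 2.76 CPM in Zbtb46 KO replicates 5 to 8, against 5.00, 42.4, 0.0357 and 5.25 CPM in wild type replicates 1 to 4. Means were 4.65 ± 7.52 CPM in Zbtb46 KO and 13.2 ± 19.6 CPM in wild type cells, with a fitted fold of 0.353 and a 95% interval from 0.0118 to 10.6. The log2 fold of Socs7 was 0.43 without wild type replicate 2, in place of -1.50, and -3.75 without Zbtb46 KO replicate 7. The edgeR adjusted p of each of the 6 members Socs2 to Socs7 was 1.00.

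**Figure D2:**
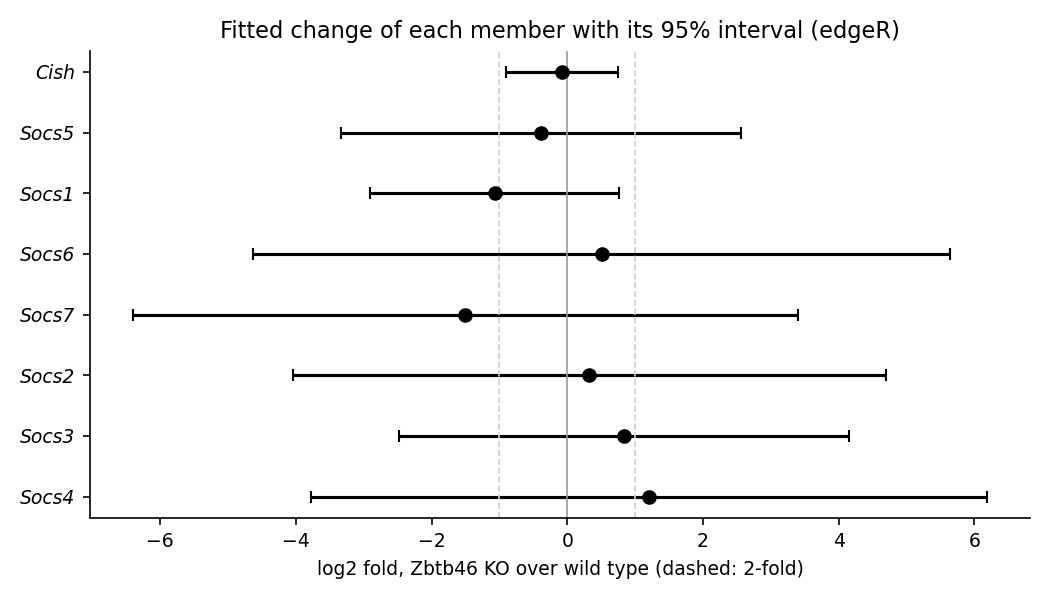
Fitted log2 fold of each member, Zbtb46 KO over wild type, with its 95% interval from edgeR's quasi-likelihood fit; dashed lines mark a 2-fold change. Only the interval of Cish, from -0.91 to 0.75, lies within the dashed lines, that of Socs1 runs from -2.90 to 0.77, and those of Socs5, Socs6, Socs7, Socs2, Socs3 and Socs4 cross both.

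The members differed in how steady their levels were. Cish, Socs1 and Socs5 had more than 3 counts in every library and the other 5 members did not, and all 8 members passed 3 counts together in only 3 of 8 libraries. A library at 3 counts or fewer was found in 39.4% of all genes tested, in 35.3% of those with means of 10 to 100 CPM and in 81.9% of those under 10 CPM, the level of Socs3, Socs4 and Socs7. The coefficient of variation of Cish was 38.1% in Zbtb46 KO and 25.8% in wild type libraries, beside medians of 32.9% and 29.5% over the 1810 genes that averaged 100 CPM or more. That of Socs1 was 39.9% in Zbtb46 KO and 26.0% in wild type libraries, where the 4920 genes with means of 10 to 100 CPM had medians of 70.1% and 73.8%. Of these genes 17.8% had a lower coefficient than Socs1 among Zbtb46 KO libraries and 6.06% among wild type ones. Socs5, with 111% and 118%, exceeded 82.8% and 82.4% of the same genes in Zbtb46 KO and wild type libraries. Socs6 exceeded 91.5% of them in Zbtb46 KO and 82.8% in wild type libraries, and Socs2 43.3% in Zbtb46 KO and 96.5% in wild type libraries. Among the 2148 genes under 10 CPM, Socs3 exceeded 52.1% in Zbtb46 KO and 23.0% in wild type libraries, so it was not uneven for its level. Socs4 exceeded 95.2% in Zbtb46 KO and 58.9% in wild type libraries, and Socs7 86.6% in Zbtb46 KO and 71.3% in wild type libraries. Across the 28 pairs of members, Pearson's r of log2(CPM + 1) over the 8 libraries ran from -0.85 for Cish and Socs3 to 0.53 for Cish and Socs2, given as a description, since the points share library depth and preparation.

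**Figure D3:**
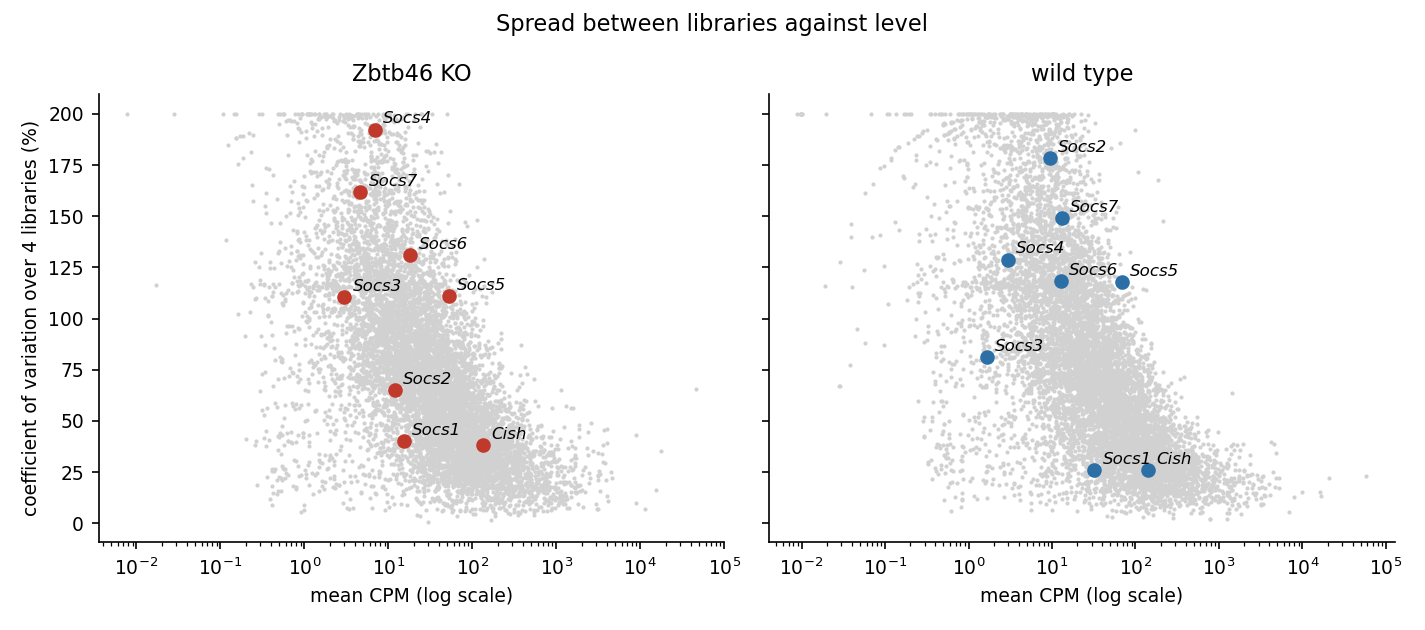
Coefficient of variation over 4 libraries against mean CPM (log axis) for Zbtb46 KO libraries at left and wild type libraries at right, with each tested gene in grey and the SOCS members in colour. Socs1 lies low among genes of its level, at 39.9% and 26.0%, and Socs5 high, at 111% and 118%.

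Genes whose pattern over the 8 libraries was most like that of a member were read from 3114 tested genes that averaged 50 CPM or more, by Pearson's r of log2(CPM + 1). For Socs1 they were Slc7a6os (r = 0.93), Reep3 (0.90) and Mycbp2 (0.90). For Cish they were Fosb (0.94), Mgat2 (0.93) and Map3k7 (0.92), and for Socs5 Mrpl17 (0.96), Cbarp (0.94) and Cenpq (0.93). For Socs6 they were Rnf2 (0.93), Hnrnpa0 (0.87) and Tsg101 (0.86), and for Socs2 Hsbp1 (0.91), Tnfrsf25 (0.90) and Nufip2 (0.89). These are the highest values of many and have no test. Without the 2 libraries farthest from the median of the member, r was 0.88 for Slc7a6os, 0.92 for Fosb and 0.90 for Mrpl17, and 0.64 for Map3k7.

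Genes around the family were followed through 10 lists that together held 91 genes, of which 71 were tested. EdgeR called 0 of the 71, against 0% of all genes tested, and 40 were fitted higher and 31 lower in Zbtb46 KO. An unadjusted p under 0.05 was reached by 6 of 71 (Ptpn6, Pias1, Stat4, Csf2rb, Fosl2 and Gbp2), against 4.10% of all genes tested. The groups did not overlap in 4 that were higher in Zbtb46 KO (Nedd8, Ptpn6, Csf2rb and Irf8), against 2.26% of all genes tested, and in 2 that were lower (Stat4 and Fosl2), against 2.10%.

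Of the 12 other inhibitors of JAK-STAT signalling, 9 were tested, with 5 fitted higher and 4 lower. Ptpn6 encodes the phosphatase SHP-1, which dephosphorylates JAKs and cytokine receptors in blood cells. It had 18.1, 7.45, 6.48 and 6.01 CPM in Zbtb46 KO replicates 5 to 8, against 0, 0.0410, 0.0714 and 0.0389 CPM in wild type replicates 1 to 4. All 4 Zbtb46 KO libraries lay above the wild type ones, which together had 4 counts against 1241. Its edgeR adjusted p was 0.515 (unadjusted 0.00105), while DESeq2 gave an adjusted p of 2.66e-12. The summed level of macrophage and neutrophil markers was 370.3, 11.1, 765 and 0.279 CPM in the same Zbtb46 KO libraries and between 0.983 and 87.9 CPM in wild type libraries, and their part in this difference was not tested. Pias1, a SUMO ligase that restrains STAT proteins, had 95.2 ± 19.3 CPM in Zbtb46 KO and 204 ± 123 CPM in wild type cells, a log2 fold of -1.10 with an edgeR adjusted p of 1.00.

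The partners that turn a SOCS protein into a ubiquitin ligase were followed as a list of 7. All 7 (Elob, Eloc, Cul5, Rnf7, Ube2f, Nedd8 and Arih2) were tested, with 5 fitted higher and 2 lower. Nedd8, the ubiquitin-like protein that activates CUL5, had 379, 379.5, 469 and 419 CPM in Zbtb46 KO replicates 5 to 8, against 334, 355, 315 and 253 CPM in wild type replicates 1 to 4. All Zbtb46 KO libraries lay above the wild type ones, and the fitted fold was 1.31 with a 95% interval from 0.957 to 1.79 and an edgeR adjusted p of 1.00. Ube2f, which attaches NEDD8 to CUL5, had 144 ± 42.5 CPM in Zbtb46 KO and 111 ± 53.8 CPM in wild type cells.

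All 11 Janus kinase and STAT genes were tested, with 4 fitted higher and 7 lower in Zbtb46 KO. Stat4, the STAT of interleukin 12 signalling, had 409, 734, 357 and 532 CPM in Zbtb46 KO replicates 5 to 8, against 736, 831, 1054 and 1057 CPM in wild type replicates 1 to 4. The groups touched but did not overlap, at 734 CPM in Zbtb46 KO replicate 6 and 736 CPM in wild type replicate 1. The log2 fold was -0.86 (standard error 0.26), with an edgeR adjusted p of 0.772 and a DESeq2 adjusted p of 0.226. The kinase gene Tyk2 had 21.0 ± 22.6 CPM in Zbtb46 KO and 5.76 ± 8.08 CPM in wild type cells, and its log2 fold of 1.86 was -0.49 with limma-voom, 3.59 without wild type replicate 4 and 1.14 without Zbtb46 KO replicate 6.

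**Figure D4:**
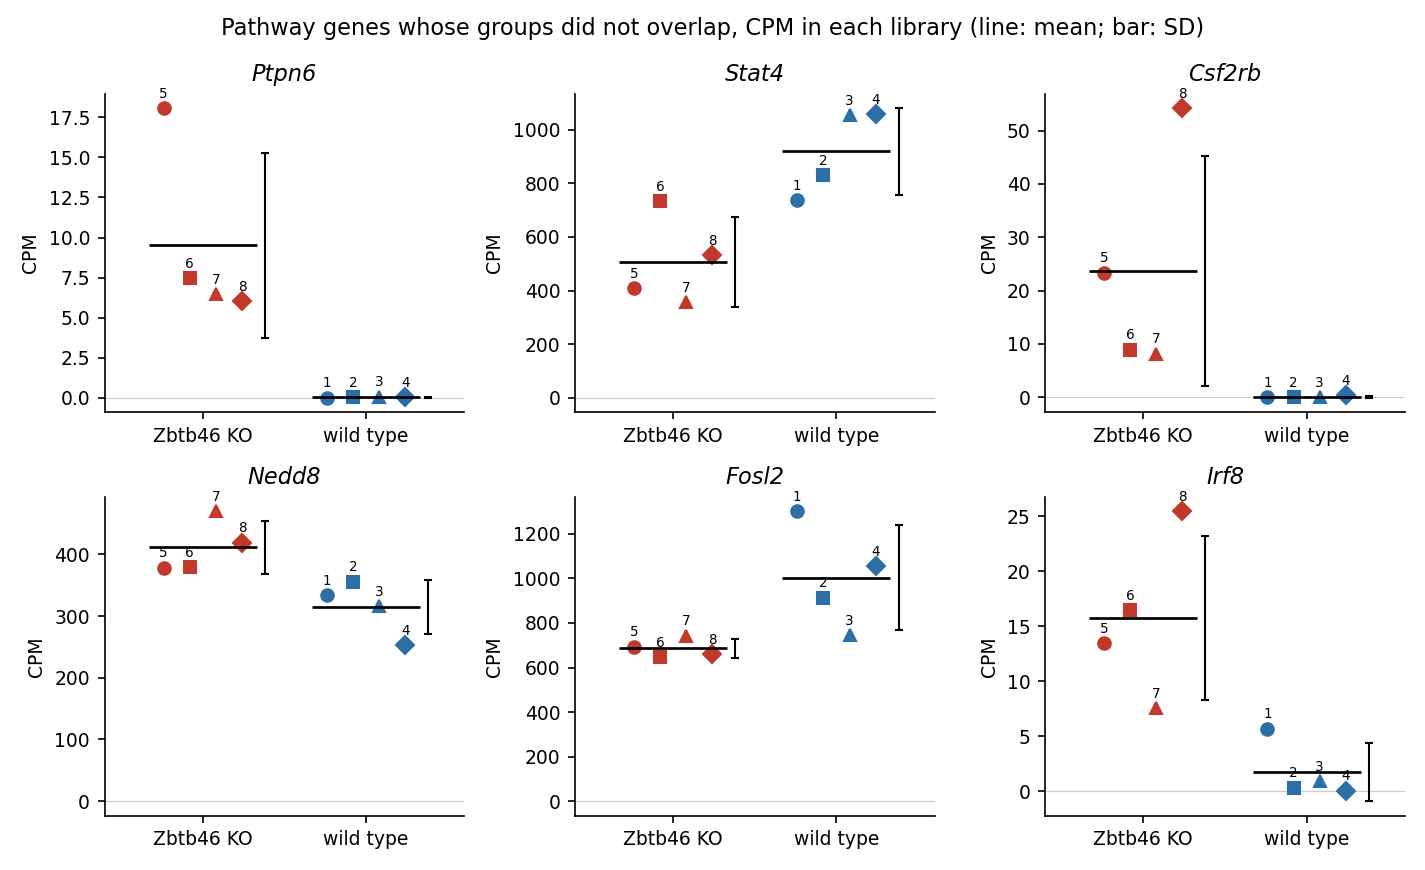
CPM in each library (linear axis, points numbered by replicate, line at the group mean, bar ± SD, n = 4) of the pathway genes whose groups did not overlap, with Zbtb46 KO left of wild type in each panel. Ptpn6 and Csf2rb were nearly absent from the wild type libraries, with 4 and 10 summed counts, and Fosl2 overlapped when scaled by library totals alone.

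EdgeR called no receptor gene upstream of the SOCS proteins in any of these lists, while DESeq2 called Csf2rb. In the common gamma chain and GM-CSF receptor families 9 of 10 genes were tested, with 6 fitted higher and 3 lower. Csf2rb, the shared beta chain of the GM-CSF, interleukin 3 and interleukin 5 receptors, had 23.4, 8.95, 8.18 and 54.3 CPM in Zbtb46 KO replicates 5 to 8, against 0.0388, 0, 0 and 0.350 CPM in wild type replicates 1 to 4. The groups did not overlap, and its edgeR adjusted p was 0.554 (DESeq2 6.36e-06). Mice have a close copy of this gene, Csf2rb2, and reads of the copies may not be separated. The part of the macrophage and neutrophil markers, with the values given beside Ptpn6, was not tested here either. Il2rg, the common gamma chain, had 1855 ± 887 CPM in Zbtb46 KO and 2491 ± 599.5 CPM in wild type cells.

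In the gp130, interleukin 12 and interleukin 10 receptor families 5 of 12 genes were tested, with 3 fitted higher and 2 lower. Il23r had 1515 ± 610.0 CPM in Zbtb46 KO and 2355 ± 682 CPM in wild type cells (log2 fold -0.64, edgeR adjusted p 1.00), and Il27ra had 21.8 ± 14.2 CPM in Zbtb46 KO and 7.58 ± 1.74 CPM in wild type cells. All 4 tested interferon receptor genes of 5 were fitted higher. Ifnar1 had 102 ± 83.4 CPM in Zbtb46 KO and 55.9 ± 27.8 CPM in wild type cells, and Ifnar2 had 106 ± 21.6 CPM in Zbtb46 KO and 64.4 ± 59.5 CPM in wild type cells. Growth factor and hormone receptors and insulin receptor substrates had 4 of 10 genes tested, with 1 fitted higher and 3 lower. Kit had 1026 ± 282 CPM in Zbtb46 KO and 825 ± 233 CPM in wild type cells, and Igf1r had 125 ± 117 CPM in Zbtb46 KO and 173 ± 39.4 CPM in wild type cells.

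Other targets of the STATs that induce SOCS genes did not pass the test either. Of 7 STAT5-induced genes 4 were fitted higher and 3 lower, with the survival gene Bcl2 at 448 ± 327 CPM in Zbtb46 KO and 295 ± 57.5 CPM in wild type cells, and the kinase gene Pim2 at 15.4 ± 11.4 CPM and 10.5 ± 7.46 CPM. Of 8 STAT3-induced genes 4 were fitted higher and 4 lower. The AP-1 gene Fosl2 had 686 ± 42.4 CPM in Zbtb46 KO and 1004 ± 235 CPM in wild type cells (log2 fold -0.55, edgeR adjusted p 1.00), and its groups, which did not overlap after TMM scaling, overlapped with library totals alone. Il22 had 15270.2 ± 2477 CPM in Zbtb46 KO and 21033 ± 4602 CPM in wild type cells. Irf8, which encodes a transcription factor of the interferon response, had 13.5, 16.5, 7.56 and 25.4 CPM in Zbtb46 KO replicates 5 to 8, against 5.70, 0.328, 0.928 and 0.0778 CPM in wild type replicates 1 to 4, without overlap and with an edgeR adjusted p of 1.00. Dendritic cells also express Irf8, and the part in it of their markers, given above, was not tested. Gbp2, an interferon-induced GTPase with close paralogs that may share its reads, had 107 ± 78.9 CPM in Zbtb46 KO and 30.6 ± 16.1 CPM in wild type cells, with an edgeR adjusted p of 1.00.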

How the data were processed

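Each of 8 mice gave 1 RNA-seq library; per the labels' protocols, cDNA was made and amplified with the SMARTer Ultra Low Input kit. CASAVA 1.8.2, STAR 2.3.0 and mm10 are named in the submitters' processing notes; how reads were counted (tool, gene models, strand, multiple mapping) was not given in the sources used here. Raw read counts per Entrez gene ID were deposited in 1 table, with no normalization by the authors. Of 27179 rows, 25275 matched a symbol in RefSeq's GRCm38.p6 table, and the rest held 0.303% of counts.

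Groups came from the sample titles. EdgeR 4.0.16 (R 4.3.3) was run with TMM factors, filterByExpr by group and the quasi-likelihood F test, with Benjamini-Hochberg adjustment over all 8878 tested genes. Standard errors and 95% intervals of folds were derived from the F statistic. Nothing in the labels says more on how mice were handled together, so p-values measure the spread between these libraries, which may be partly technical. In these fits the variance of a gene is partly shared with other genes, so its interval reflects more than the scatter of its own values. The step was also run on simulated counts, but no outcome of that run is given here, so it says nothing on power. Levels per kb use merged exons of GENCODE M21 (same build). Alternatives were DESeq2 1.42.0, RLE and no scaling factors, limma-voom (limma 3.58.1) with sample quality weights, robust dispersions, no filter, a filter of 5 CPM in at least 4 libraries and each library left out; leaving out replicates 1 and 6, or 1, 2 and 7, was added after seeing the data.

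The members and lists were chosen with earlier results of these data known. A few markers, an allele name and the counts of 1 list are not reported here. All members are named whatever their p; each list names members past the threshold or else the 2 tested genes with the smallest p, and any others named in a count were chosen after their values were seen. Genes alike in pattern are the 3 with the highest r for each member that averaged 10 CPM or more. Promoter patterns were chosen after the data were seen.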

Additional observations from a re-analysis of the deposited data

Results flagged for a closer look

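For each gene and group, the highest and lowest library was called isolated when its distance to its nearest neighbour was more than about 0.83 of the range of the 4 libraries (Dixon's critical value at 95%). This met 11 of 58 sets of 4 libraries. About 2.9 (1 in 20) would be met if the values were normal and the sets independent. CPM cannot fall below 0 and tend to be skewed upward, the sets share the same libraries, and many genes were named by their p. The 2.9 is therefore no measure of chance here, and the excess over it was not tested. Among the SOCS genes they were Socs1 in Zbtb46 KO replicate 5, at 24.4 CPM with 12.0 to 12.4 CPM in the rest of its group, and Socs4 in Zbtb46 KO replicate 8, at 26.6 CPM with 0 to 0.682 CPM in the rest. In wild type replicate 2, Socs2 was at 34.8 CPM with 0 to 3.06 CPM in the rest of its group, and Socs7 at 42.4 CPM with 0.0357 to 5.25 CPM in the rest. Wild type replicate 2 is the library with 1339.8 CPM of epithelial markers, whose part in these values was not tested.

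Among the pathway genes, Ptpn6 was at 18.1 CPM in Zbtb46 KO replicate 5, with 6.01 to 7.45 CPM in the rest of its group. In Zbtb46 KO replicate 6, Ifnar1 was at 227 CPM with 51.6 to 71.8 CPM in the rest, and Bcl2 at 937 CPM with 257 to 327 CPM in the rest. In wild type replicate 1, Il2rg was low at 1595 CPM with 2731 to 2852 CPM in the rest, and Irf8 high at 5.70 CPM with 0.0778 to 0.928 CPM in the rest. In wild type replicate 4, Tyk2 was at 17.8 CPM with 0.999 to 2.79 CPM in the rest, and Csf2rb at 0.350 CPM with 0 to 0.0388 CPM in the rest.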

How the results depend on the processing

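No SOCS member passed the threshold under any alternative tried. Over all genes, the counts of 0 higher and 0 lower became 240 and 134 with DESeq2 and 1 (Il6) and 1 (Med31) with no filter, and ranged over 0 to 0 higher and 0 to 2 lower (Eprs and Cdk11b, without replicate 6) with a library left out. Socs1 and Socs3 kept their sign in every alternative that tested them. Log2 folds with a library left out ranged over -0.28 to 0.15 for Cish, -0.11 to 3.50 for Socs2, -3.47 to 2.51 for Socs4, -1.50 to 0.77 for Socs5, -0.80 to 1.37 for Socs6, -3.75 to 0.43 for Socs7, 1.14 to 3.59 for Tyk2, -0.057 to 0.79 for Bcl2 and -0.016 to 0.87 for Pim2. Signs also turned for Cish with no scaling factors (0.016) and without replicates 1, 2 and 7 (0.18), for Socs2 without replicates 1 and 6 (-0.020), for Socs5 with limma-voom (0.020) and without replicates 1, 2 and 7 (0.29), for Tyk2 with limma-voom (-0.49) and for Bcl2 without replicates 1 and 6 (-0.035); the cause was not tested. The log2 fold of Socs2 reached 8.19 without replicates 1, 2 and 7 (edgeR adjusted p 0.986). Wild type replicates 3 and 4, which stayed in that fit, had 0 and 2 counts of Socs2. With no scaling factors the median log2 fold of all genes was 0.11, against 0.02. DESeq2 called Ptpn6, Csf2rb and Zbtb46. Socs3, Socs4 and Socs7 did not pass the stricter filter. No paired analysis was possible because the groups share no replicate number. Depth does not limit Cish, whereas the spread between libraries leaves folds of 10 or more, up or down, within the intervals of Socs2 to Socs7.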
